A study of Danio rerio with 30 samples.

Results

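The genes described here encode ion channels and the transmitter receptors that are themselves channels. They were taken from the array by gene symbol, and the families were chosen with earlier results of these data known. The families were potassium, sodium, calcium and HCN (hyperpolarization-activated) channels, and the GABA-A, glycine, glutamate, nicotinic and P2X receptors. The symbols selected 40 probe sets of 38 genes, out of 15502 non-control probe sets and 8793 genes with a single symbol. For each gene the probe set with the highest mean over all arrays was used. Of the 38 genes, 17 exceeded a GCRMA value of 4 (log2) in at least 3 of the 30 arrays and were tested. The other 21 did not, with means of 1.65 to 3.68, the highest of them close to the lowest mean of a gene kept, 3.71.

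Adult AB strain zebrafish, 1 year old, were exposed to chlorpyrifos (CPF, an organophosphate insecticide), to copper (Cu), or to both, and RNA was hybridised to Affymetrix zebrafish arrays, 3 to a group. The 10 groups were a control with neither agent, CPF 0.1, 0.25 and 0.6 alone, Cu 0.1, 0.25 and 0.6 alone, and CPF 0.1, 0.25 and 0.6 each with Cu 0.25. The labels give no unit for the concentrations, no exposure time and no vehicle, and do not say how many fish contributed to an array. The study design speaks of 30 fish in groups of 3, the same number as the arrays, but no label ties an array to a fish. If arrays of a group repeat RNA of the same fish, p-values measure technical spread only. If each array holds a pool of different fish, they measure spread between pools. The source label names olfactory rosettes, whereas the tissue label adds olfactory bulbs and telencephalons. Both kinds of marker were present: the 4 olfactory sensory neuron markers on the array (calb2a, gng13b, ompb, s100z) and 15 of 16 bulb and telencephalon neuron markers passed the filter.

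Nerve cells signal by opening channels in their membranes. Voltage-gated sodium and calcium channels carry the inward current of the action potential and of transmitter release, potassium channels restore and set the resting potential, and receptor channels open when a transmitter binds. In the olfactory system, sensory neurons in the rosette send their axons to the olfactory bulb, where glutamate excites bulb neurons and GABA from local interneurons inhibits them. Chlorpyrifos, through its oxon metabolite, inhibits acetylcholinesterase, the enzyme that removes acetylcholine from its nicotinic and muscarinic receptors, and copper is a known olfactory toxicant in fish.

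Array medians lay between 5.53 and 5.63 (log2), and correlations between arrays between 0.962 and 0.993. The median correlation was 0.984 within groups and 0.982 between groups. Dates in the sample titles divide the arrays into 3 title batches of 12, 13 and 5 arrays, entered as a term in the main fit. The batches were uneven over the groups. The 5 arrays of batch 3 came from control, Cu 0.25, Cu 0.6, CPF 0.25 + Cu 0.25 and CPF 0.6 + Cu 0.25. Ranges of deposited values given below do not take the batch out. Markers of tissues outside the labels varied between arrays: summed retina markers ranged from 6.69 to 11.17 on the log2 scale, and 4 arrays were richest in liver or pancreas markers (CPF 0.25 replicates 1 and 3, CPF 0.6 replicate 2 and Cu 0.25 replicate 3).

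The filter kept 44.7% of the channel and receptor genes, against 67.9% of all probe sets and 73.3% of all genes with a single symbol. In 19 of the 21 genes left out, no array rose above 4, and their means, together with those of glra4a and kcnk1b with 1 such array each, lay between 1.65 and 3.68. All 5 glycine receptor subunit genes (glra1, glra3, glra4a, glra4b, glrba) fell in this set, as did both K2P leak potassium channel genes (kcnk1b, kcnk5a) and kcnn1b, which encodes a calcium-activated potassium channel. Of 5 nicotinic receptor genes only chrnb3a was kept; the others were chrna1 and chrne, which encode muscle-type subunits, chrna7a and chrnb3b. The remaining genes left out were cacna1c (an L-type calcium channel), cacng1a (a muscle calcium channel subunit), scn1laa (a sodium channel pore), scn4bb (a sodium channel beta subunit), kcnh6a (a potassium channel of the ether-a-go-go related family), gabrr2b (a GABA-A rho subunit), grik6 (a kainate receptor subunit) and the ATP receptors p2rx3a and p2rx5. The deposited table holds no detection call, so a value under 4 does not show that a gene is silent.

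**Figure D1:**
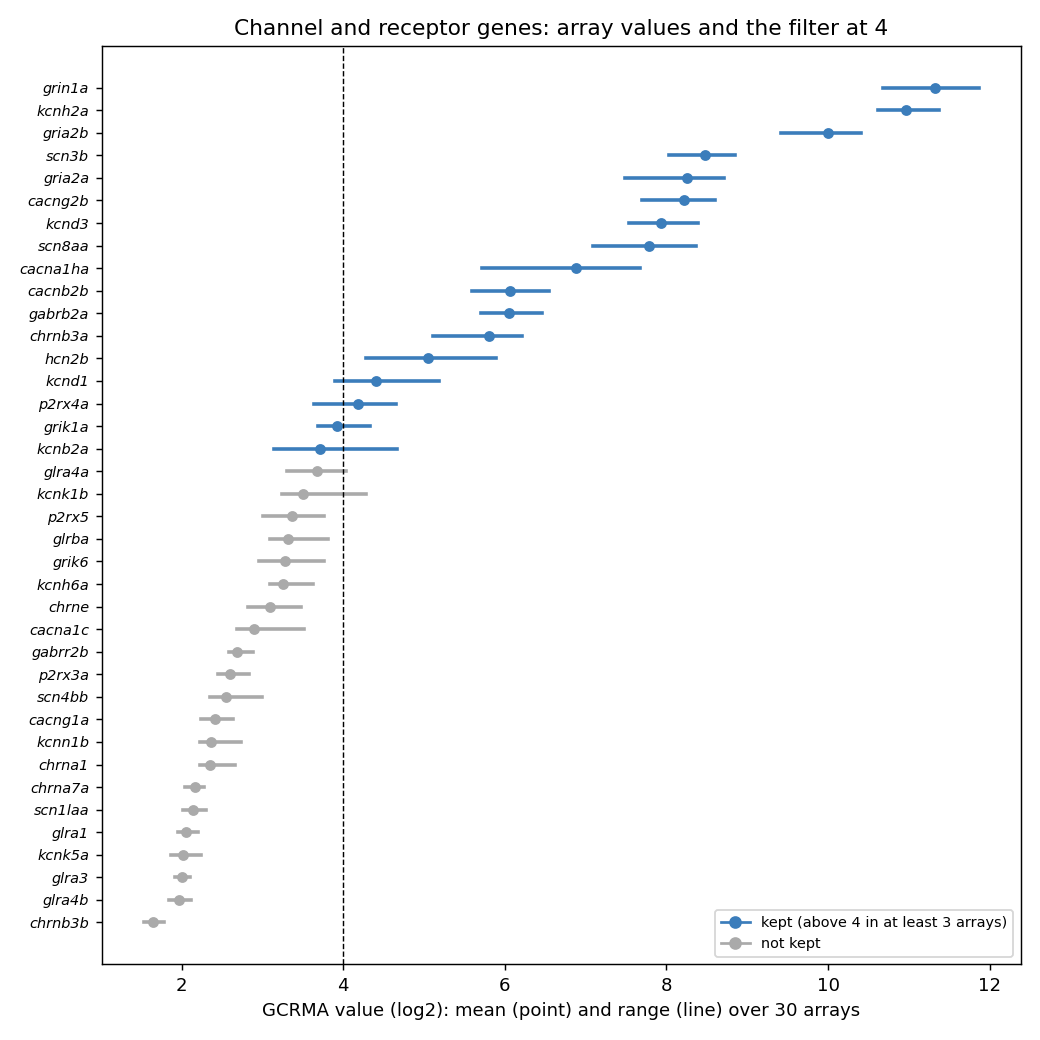
GCRMA values (log2, horizontal axis) of the 38 genes, 1 line per gene, as the mean (point) and range (line) over 30 arrays, with the filter at 4 dashed. The 17 genes kept are blue and the 21 not kept are grey. Each gene has its own probe set, so positions are not a ranking of transcript abundance.

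Among the genes kept, 13 were above 4 in all 30 arrays. The exceptions were kcnb2a, above 4 in 3 arrays, grik1a in 9, p2rx4a in 24 and kcnd1 in 28. A gene kept through a few high arrays had to vary, so these 4 are read with that in mind.

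The sodium channel beta subunit gene scn3b was the 1 member that passed a test. Beta subunits sit beside the pore-forming alpha subunit and adjust its gating and its delivery to the membrane. In the control arrays scn3b read 8.67, 8.76 and 8.85 (log2). With Cu 0.1 it read 8.74, 8.43 and 8.66, with Cu 0.25 8.28, 8.11 and 8.25, and with Cu 0.6 8.28, 8.32 and 8.07. The arrays with Cu 0.25 and those with Cu 0.6 all lay below every control array and below every Cu 0.1 array.

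In the mixtures scn3b read 8.48, 8.03 and 8.23 with CPF 0.1 + Cu 0.25. It read 8.17, 8.12 and 8.74 with CPF 0.25 + Cu 0.25, and 8.29, 8.32 and 8.54 with CPF 0.6 + Cu 0.25. Of these 9 arrays, only replicate 3 of CPF 0.25 + Cu 0.25 reached into the range of the control arrays. With chlorpyrifos alone the values were 8.83, 8.45 and 8.49 at CPF 0.1, 8.75, 8.65 and 8.82 at CPF 0.25, and 8.70, 8.48 and 8.67 at CPF 0.6. Across the experiment the 15 arrays with Cu 0.25 or 0.6 ranged from 8.03 to 8.74 with a median of 8.28. The 15 arrays with no copper or Cu 0.1 ranged from 8.43 to 8.85 with a median of 8.67, and 12 of the former lay below all of the latter.

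**Figure D2:**
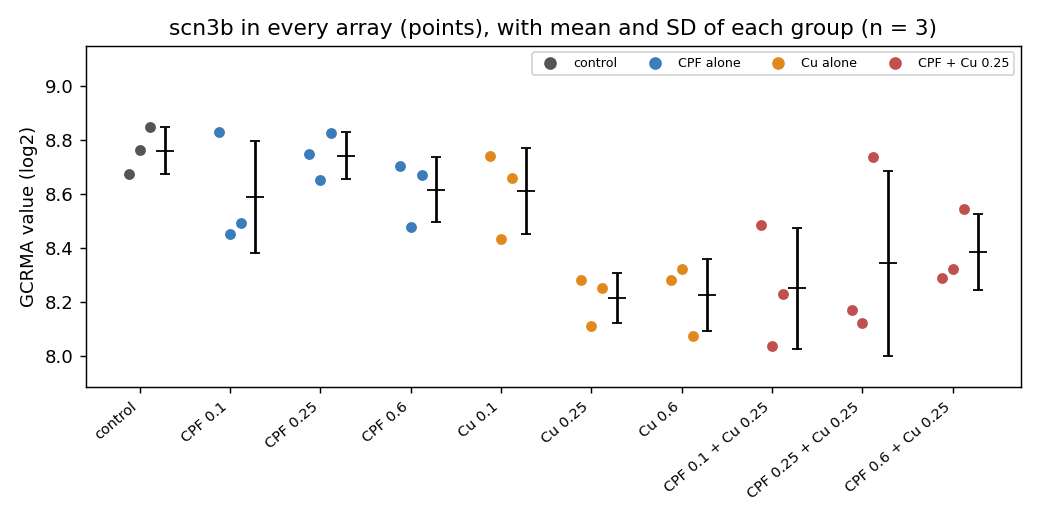
scn3b in each of the 30 arrays (points; GCRMA value, log2, on an axis that does not start at 0), with the mean and SD of each group (n = 3). Arrays with Cu 0.25 or 0.6 lie mostly between 8.03 and 8.54, whereas arrays without copper or with Cu 0.1 lie between 8.43 and 8.85.

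The averaged copper comparison asked for a change with Cu 0.25 averaged over the levels of chlorpyrifos, in 4 matched pairs of groups. It set 12 arrays with Cu 0.25 against 12 without copper. A change at only 1 level would be diluted in this average. scn3b fell by 0.37 ± 0.08 (log2, SE; 95% interval -0.53 to -0.21), a 1.29-fold lower value, with an adjusted p of 0.00591 in limma. Its lowest, median and highest values were 8.03, 8.27 and 8.74 with copper and 8.45, 8.69 and 8.85 without. After the batch term was removed, 11 of the 12 copper arrays were lower than the median array without copper, and 9 were lower than every such array. For the copper rank trend, over the 4 groups with copper alone or none, the fitted slope of scn3b was -0.20 ± 0.05 (SE) per rank, with a limma adjusted p of 0.0323. The slope uses the same control and Cu 0.25 arrays as the averaged comparison, so it is not separate support. The fall was not even over the ranks: Cu 0.25 and Cu 0.6 gave -0.55 and -0.53 against the control. This trend passed the threshold in 6 of 12 fits with 1 array left out. It lost its call without any single control array or Cu 0.6 array.

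Against the control alone, scn3b changed by -0.17 ± 0.15 (SE) at Cu 0.1, -0.55 ± 0.15 at Cu 0.25 and -0.53 ± 0.15 at Cu 0.6. Their limma adjusted p-values were 0.693, 0.125 and 0.0804, so no single copper group passed. In the mixtures the changes were -0.54, -0.42 and -0.38 in order of rising CPF, with limma adjusted p-values of 0.140, 0.193 and 0.439. With chlorpyrifos alone they were -0.19, -0.04 and -0.17, with limma adjusted p-values of 0.848, 0.979 and 0.800. All of these share the 3 control arrays. The interaction terms, that is, the chlorpyrifos change in the presence of Cu 0.25 minus that without copper, were 0.21 ± 0.21, 0.16 ± 0.21 and 0.34 ± 0.21 (SE), and their joint limma F-test did not pass (unadjusted p = 0.480).

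Markers of the olfactory sensory neurons were also lower with copper. All 4 of them fell with averaged copper by the limma test, with a median change of -1.32. ompb, which encodes olfactory marker protein, fell by 1.26 ± 0.19 (SE), and gng13b, which encodes a G protein gamma subunit, by 0.89 ± 0.08. The summed level of the 4 genes was 12.67 to 13.06 (log2) in the control, 11.68 to 11.89 with Cu 0.1, 11.15 to 11.82 with Cu 0.25 and 10.62 to 10.78 with Cu 0.6. It was 11.09 to 12.25 in the mixtures and 11.81 to 13.12 with chlorpyrifos alone. At Cu 0.1 the sensory neuron markers were already below the control range. Of the 3 scn3b values there, 1 lay within its control range and the others below it. Every marker sum with Cu 0.25 or 0.6 lay below the control range. Of the 15 scn3b values in those arrays, 12 lay below all arrays with no copper or Cu 0.1. Single arrays were also picked after the values were seen, so they do not stand for the rest. CPF 0.6 replicate 3 had a marker sum of 11.81, the lowest of its group. Its scn3b value, 8.67, lay between those of the other replicates. CPF 0.25 + Cu 0.25 replicate 3 had a marker sum of 11.78 and scn3b at 8.74, both the highest of its group. The part of these cells in the scn3b result was not tested, and in a piece of tissue fewer cells of a type and less RNA per cell cannot be told apart.

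Of the 15 bulb and telencephalon neuron markers, 1 fell with averaged copper, and their median change was 0.04. Their summed level was 14.82 to 15.07 in the control, 15.08 to 15.37 with Cu 0.1, 14.86 to 15.12 with Cu 0.25 and 14.95 to 15.13 with Cu 0.6. It was 15.01 to 15.30 in the mixtures, where CPF 0.1 + Cu 0.25, like Cu 0.1, lay wholly above the control. The marker that fell was th, the tyrosine hydroxylase of dopaminergic neurons, by 0.32 ± 0.09 (SE, limma adjusted p = 0.0361). Its values lay close to the filter at 4, with a mean of 4.05 and a highest value of 4.82. Liver markers also moved with averaged copper, 2 of 5 kept falling by the limma test, while none of the 4 pancreas markers passed. The summed liver level was 6.93 to 8.66 in the control and 6.38 to 7.73 with Cu 0.25, and it reached 11.88 in a CPF 0.6 array. This sum lay wholly below the control with Cu 0.1 (6.10 to 6.90) and CPF 0.1 + Cu 0.25 (6.02 to 6.62). The same held for CPF 0.6 + Cu 0.25 (6.35 to 6.82). The summed pancreas level was 7.96 to 8.12 in the control. It lay wholly below that with Cu 0.1 (6.46 to 7.48), Cu 0.6 (6.49 to 6.95) and CPF 0.1 + Cu 0.25 (6.51 to 6.92). CPF 0.1 alone (6.74 to 7.91) was below it too. In both sums the remaining treated groups overlapped the control. Microglia and macrophage markers were higher with averaged copper, 2 of 8 kept by the limma test (c1qc by 0.91 ± 0.13 and marco by 0.98 ± 0.16, SE), with a median change of 0.21 and all 8 above 0. Their summed level was 13.93 to 14.01 in the control, 13.94 to 14.24 with Cu 0.25 and 14.04 to 14.14 with Cu 0.6. In the mixtures the microglia and macrophage sum was 13.85 to 14.10, and only CPF 0.25 + Cu 0.25 lay wholly above the control there. This sum is carried mostly by apoeb, with a mean of 13.82. By the mean of the 8 log2 values the control was 7.36 to 7.48. On that measure CPF 0.1 + Cu 0.25 (7.57 to 8.01) and CPF 0.25 + Cu 0.25 (7.74 to 8.125) lay wholly above the control. CPF 0.6 + Cu 0.25 (7.44 to 7.73) overlapped it. None of the 4 erythrocyte markers passed, but their summed level was 12.48 to 12.80 in the control, 12.79 to 13.49 with Cu 0.25 and 12.95 to 14.10 with Cu 0.6. In the mixtures the erythrocyte sum was 12.81 to 13.14, 12.86 to 13.07 and 13.10 to 13.32 in order of rising CPF, wholly above the control. By the mean of the 4 log2 values, among the mixtures only CPF 0.6 + Cu 0.25 (7.57 to 7.79) lay wholly above the control (7.01 to 7.54). Radial glia and astroglia markers, all 8 kept, had a summed level of 14.53 to 14.73 in the control. CPF 0.1 (14.76 to 14.84), CPF 0.25 (14.80 to 14.88) and CPF 0.1 + Cu 0.25 (14.74 to 14.86) lay wholly above it. The other treated groups overlapped it. The part of all these cells in the scn3b result was not tested either. Without the 4 arrays richest in liver or pancreas markers the scn3b change was -0.36 with a limma adjusted p of 0.0647, so its size hardly moved and its call was lost. That setting was chosen after seeing the data and leaves CPF 0.25 with 1 array.

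**Figure D3:**
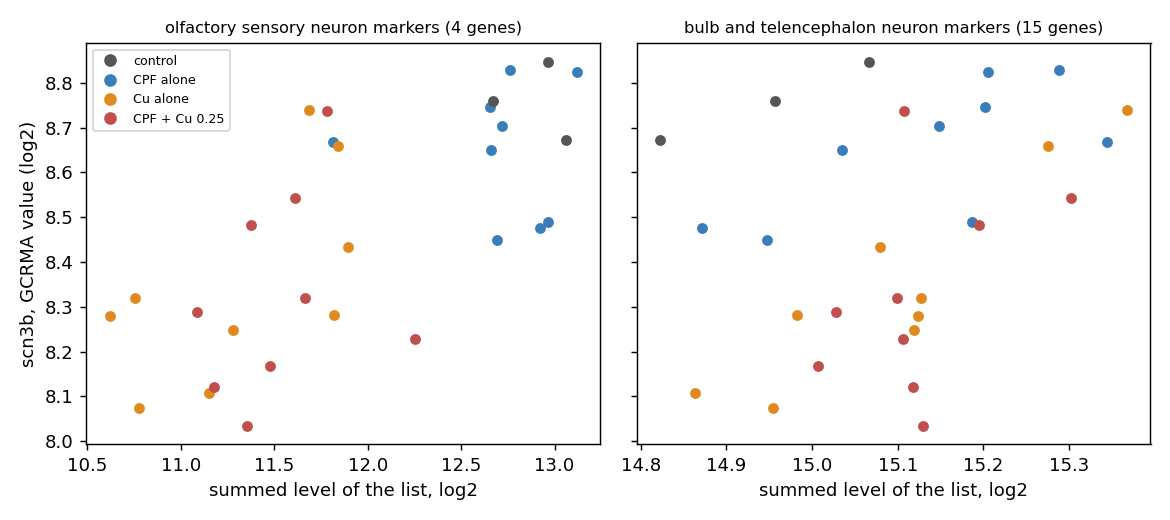
scn3b (vertical axis, GCRMA value, log2) against the summed level of olfactory sensory neuron markers (left, 4 genes) and of bulb and telencephalon neuron markers (right, 15 genes), 1 point per array, coloured by kind of group. All copper arrays lie below the control in sensory neuron marker sum, down to 10.62, and most but not all of them lie below it in scn3b. In bulb and telencephalon sum Cu 0.1 and CPF 0.1 + Cu 0.25 lie wholly above the control, and the other copper groups overlap it.

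The other sodium channel gene kept, scn8aa, encodes a pore-forming subunit of axons and their initial segments. Its values were 7.13, 7.84 and 7.82 in the control, 7.82, 7.50 and 7.43 with Cu 0.25, and 7.75, 7.64 and 7.10 with Cu 0.6. These ranges overlap. Its averaged copper change was -0.003 ± 0.12 (SE, limma adjusted p = 0.992), so the beta subunit gene scn3b passed the test and the alpha subunit gene did not. The difference between these changes was not tested.

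The averaged copper comparison called 1 of the 17 members, where it called 4.35% of all 10531 probe sets tested (2.17% lower). The median change was 0.04 over the members and 0.02 over all probe sets. The same 1 member, or 5.88%, had p under 0.05 before adjustment, against 19.3% of all probe sets. The other 16 members changed by -0.25 to 0.20 (log2), with a smallest limma adjusted p of 0.273. The 95% interval lay within 0.5 of 0 in 15 of the 17 genes and within 1 of 0 in all 17.

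**Figure D4:**
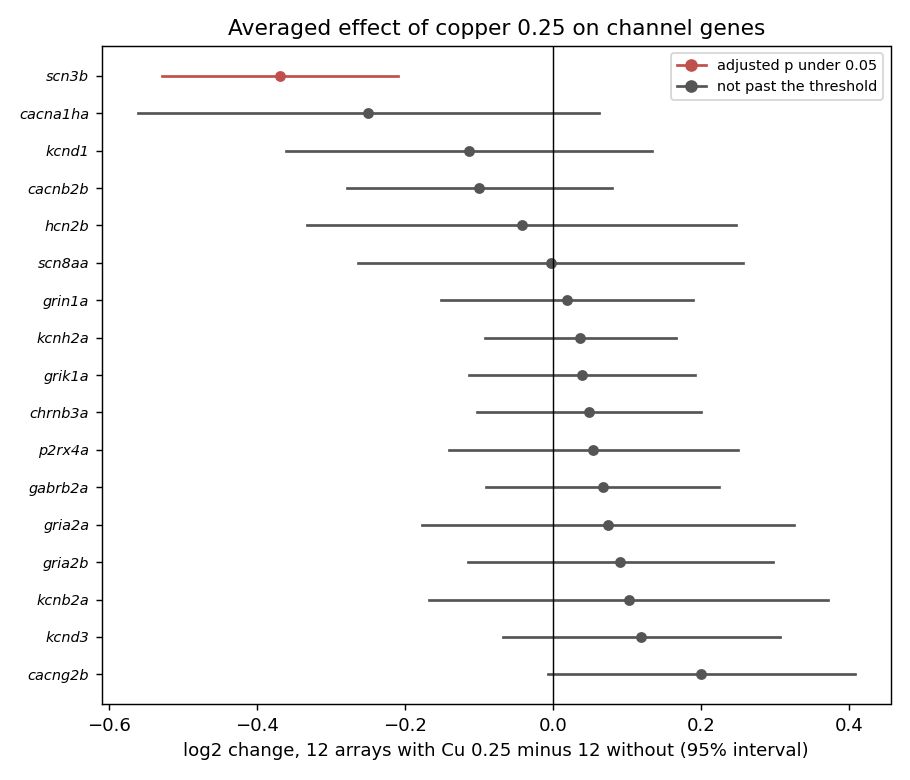
Change with Cu 0.25 (log2, 12 arrays with copper minus 12 without) for the 17 tested genes, with 95% intervals from limma. scn3b at -0.37 is red, the others lie between -0.25 and 0.20, and their intervals include 0.

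The potassium channel genes kept were 4. kcnd1 and kcnd3 encode A-type channels, which pass a brief current that delays firing, kcnb2a encodes a delayed rectifier, and kcnh2a encodes an ether-a-go-go related channel that aids repolarization. None passed in any comparison. The gene kcnd3 read 7.78, 7.57 and 7.78 in the control, and 8.40, 7.75 and 8.07 with Cu 0.1, its largest change among the copper groups (0.42 ± 0.18 SE, limma adjusted p = 0.422). In CPF 0.6 it read 7.93, 7.82 and 8.21, and in the 3 mixtures 7.95, 8.20 and 7.97, then 7.96, 7.90 and 7.91, then 8.31, 7.93 and 8.09. Those 4 groups lay wholly above the control arrays. Their changes were 0.32, 0.38, 0.21 and 0.40, with a smallest limma adjusted p of 0.321. For kcnd3 the control had the lowest mean of the 10 groups, 7.71. The 4 separations share its 3 arrays and are not separate observations.

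kcnd1 read 4.68, 5.07 and 4.27 in the control and 3.90 to 4.39 with CPF 0.1 + Cu 0.25, a change of -0.58 ± 0.24 (SE, limma adjusted p = 0.254). These ranges overlap, and kcnd1 lay close to the filter. kcnh2a was the least variable of the genes kept, with a within-group SD of 0.14. Its control values were 10.93, 11.07 and 10.93, and its changes against control lay between -0.14 at Cu 0.25 and 0.18 at Cu 0.1.

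kcnb2a read 4.66 in replicate 1 of Cu 0.1, 4.64 in replicate 1 of Cu 0.6 and 4.01 in replicate 3 of CPF 0.1 + Cu 0.25. In the other 27 arrays it was between 3.15 and 3.85. The same 3 arrays had the highest summed retina markers, 10.02, 11.17 and 10.46 (log2). In the control arrays the retina sum was 8.36 to 9.77. This coincidence was noticed after the values were seen, and the part of retina in the kcnb2a values was not tested. Its change at Cu 0.6 was 0.41 ± 0.26 (SE, limma adjusted p = 0.467), and 0.12 without replicate 1. All 3 arrays (4.64, 3.73 and 3.76) lay above the control arrays (3.69, 3.36 and 3.72). After the batch term was removed the lowest of them, 3.69, fell within the control range of 3.41 to 3.72. The gene passed the filter only through the 3 arrays named above, all with copper. The separation in the deposited values is thus no support for a change.

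Of the calcium channel genes, cacna1ha encodes a T-type channel that opens at low voltages, cacnb2b an intracellular beta subunit, and cacng2b the stargazin-type protein that escorts AMPA receptors to the synapse. cacna1ha had the widest spread of the genes kept, with a within-group SD of 0.40. It read 6.74, 6.93 and 6.81 in the control and 7.67, 7.16 and 7.10 with CPF 0.1, all above the control. The change of 0.58 ± 0.30 (SE) had a limma adjusted p of 0.758. With CPF 0.25 it read 7.09, 7.10 and 7.14, again above the control, and with CPF 0.6 7.04, 6.06 and 7.32, which straddle it. Its averaged copper change was -0.25 ± 0.15 (SE), the lowest after scn3b.

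cacnb2b read 6.10, 5.80 and 5.72 in the control, 6.55, 6.38 and 6.08 with CPF 0.25, and 6.19, 6.29 and 6.43 with CPF 0.6 + Cu 0.25. The last group lay wholly above the control, while the CPF 0.25 group overlapped it. The changes were 0.49 ± 0.17 and 0.43 ± 0.17 (SE), with limma adjusted p-values of 0.676 and 0.431. It had the smallest p of the members in the test of chlorpyrifos averaged over copper levels (unadjusted p = 0.0327, limma adjusted p = 0.952). cacng2b read 7.78, 8.14 and 8.38 in the control and 8.61, 8.26 and 8.41 with CPF 0.6 + Cu 0.25. Its averaged copper change, 0.20 ± 0.10 (SE, limma adjusted p = 0.273), was the highest of the members.

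hcn2b encodes a channel opened by hyperpolarization that contributes to pacemaker currents. Its 3 control arrays spanned 4.65 to 5.45, and its group means ranged from 4.86 at Cu 0.6 to 5.20 with CPF 0.6 + Cu 0.25, less than its within-group SD of 0.35.

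Among the glutamate receptor genes, gria2a and gria2b encode the AMPA receptor subunit that limits calcium entry, grin1a the obligatory NMDA receptor subunit and grik1a a kainate receptor subunit. gria2a read 8.02, 8.18 and 8.51 in the control and 7.87, 8.49 and 8.16 with Cu 0.6. gria2b read 9.87, 9.86 and 10.01 in the control and 9.96, 10.03 and 9.92 with Cu 0.6. Both genes overlapped the control there. Their averaged copper changes were 0.07 ± 0.12 and 0.09 ± 0.10 (SE). With CPF 0.1 + Cu 0.25 gria2b read 10.21, 10.09 and 10.06, wholly above its control values, a change of 0.19 ± 0.20 (SE, limma adjusted p = 0.686). After the batch term was removed the groups overlapped, at 10.16, 10.13 and 10.01 against 9.88, 9.81 and 10.05 in the control. grik1a varied between 3.69 and 4.33 over the experiment, and its group means spanned 0.23.

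grin1a read 10.68, 11.04 and 11.26 in the control, its lowest group, and 11.86, 11.35 and 11.72 with Cu 0.1, its highest. Cu 0.1 lay wholly above the control, a change of 0.54 ± 0.16 (SE) with a limma adjusted p of 0.328. At Cu 0.25 it read 10.85, 11.18 and 11.48, which overlaps the control, and at Cu 0.6 11.61, 11.24 and 11.26. The Cu 0.6 change of 0.39 had the smallest limma adjusted p of any member but scn3b, 0.239. The changes of grin1a were above 0 in all 9 treated groups, 0.17 to 0.54, but all 9 share the same 3 control arrays, of which replicate 1 was lowest. A second probe set of grin1a, with a mean of 7.53, gave -0.04 at Cu 0.6, -0.22 at CPF 0.1 and -0.10 at CPF 0.6, where the first gave 0.39, 0.23 and 0.28. The probe sets thus differed in sign in those groups, and neither passed.

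gabrb2a, a GABA-A receptor subunit gene, read 5.97, 5.88 and 6.05 in the control, 5.95, 6.13 and 5.84 with Cu 0.6 and 6.15, 5.97 and 6.20 with CPF 0.6. The groups overlap, and its averaged copper change was 0.07 ± 0.08 (SE). chrnb3a, which encodes an accessory nicotinic subunit, read 5.11, 5.65 and 5.87 in the control. With CPF 0.1 it read 5.81, 5.89 and 6.07, and with CPF 0.6 + Cu 0.25 5.81, 5.92 and 6.21. Replicate 1 of the control was the lowest of all 30 arrays, and the highest control array lay within both treated ranges. The changes of 0.32 ± 0.15 and 0.44 ± 0.14 (SE) had limma adjusted p-values of 0.698 and 0.324. For chrnb3a too the control had the lowest mean of the 10 groups, 5.54, and both changes share its 3 arrays.

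The ATP-gated channel gene p2rx4a read 4.44, 4.16 and 4.50 in the control, 3.72, 3.75 and 4.09 with CPF 0.1 and 3.64, 4.23 and 3.82 with Cu 0.1. CPF 0.1 lay wholly below the control, a change of -0.50 (limma adjusted p = 0.674), and Cu 0.1 gave -0.46 (limma adjusted p = 0.406). With CPF 0.1 + Cu 0.25 it read 4.42, 4.66 and 4.15, within or near the control range. The chlorpyrifos change at CPF 0.1 was thus 0.82 ± 0.26 (SE) higher with Cu 0.25 than without. p2rx4a had the smallest p of the members in the interaction F-test (unadjusted p = 0.0223), but the limma adjusted p was 0.99994.

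**Figure D5:**
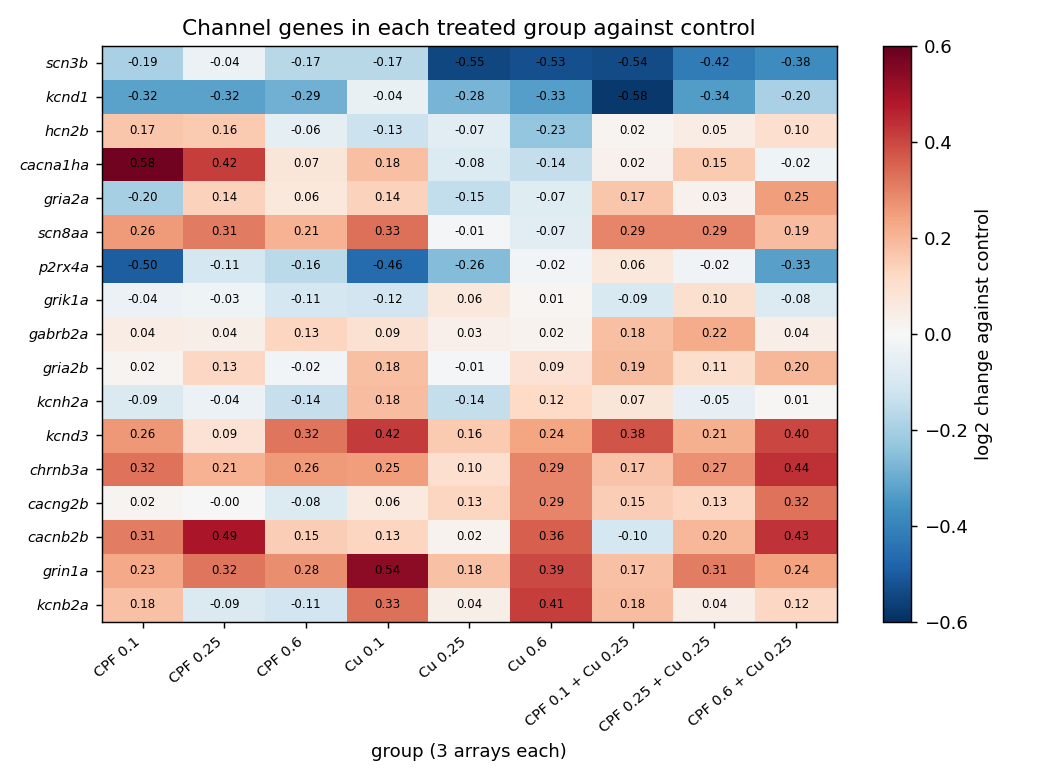
Changes against control (log2, colour and printed value) of the 17 tested genes in the 9 treated groups of 3 arrays, ordered by the change at Cu 0.6. scn3b is below 0 in all 9 columns. The columns share the 3 control arrays, so rows of 1 colour are not 9 separate observations.

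In the single groups no member passed, and few probe sets did. For copper alone the limma test called 0% of all probe sets at Cu 0.1, 0.351% at Cu 0.25 and 1.62% at Cu 0.6, and 2.23% for the copper trend (0.978% lower). The members with an unadjusted p under 0.05 numbered 3, 1 and 3 of 17 in the copper groups, or 17.6%, 5.88% and 17.6%, where 10.8%, 11% and 15% of all probe sets did. For chlorpyrifos alone the limma test called 0%, 0% and 0.0095% at CPF 0.1, 0.25 and 0.6. There 2, 1 and 0 of 17 members had an unadjusted p under 0.05, against 6.87%, 5.78% and 8.48% of all probe sets. For the mixtures the limma test called 0.171%, 0.18% and 0.095%. The members with an unadjusted p under 0.05 were 3, 1 and 4 of 17, against 15.5%, 15.9% and 8.96% of all probe sets. The member share was thus the lower one at CPF 0.25 + Cu 0.25 and the higher one at CPF 0.6 + Cu 0.25. These groups share the 3 control arrays.

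The tests over several groups gave a like count. 0 members passed the test of chlorpyrifos averaged over copper, against 0.0285% of all probe sets, and 1 of 17 had an unadjusted p under 0.05, against 4.91%. No member passed the limma interaction test, where 0% of all probe sets did. Before adjustment 2 of 17 members had p under 0.05, against 3.67%. In the test of any difference among the 10 groups, 1.32% of all probe sets and no member passed. There 2 of 17 members had an unadjusted p under 0.05, against 12.6%. There scn3b had the smallest p of the members (unadjusted p = 0.00537, limma adjusted p = 0.159).

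The differences of the members with chlorpyrifos alone ran from -0.50 (p2rx4a at CPF 0.1) to 0.58 (cacna1ha at CPF 0.1), with a smallest limma adjusted p of 0.656. In single groups against control, between 3 and 7 of the 17 intervals lay within 0.5 of 0, and 16 or all 17 within 1 of 0. Changes under 0.5 in a single group of 3 were thus mostly not resolved. Members whose deposited values in a group did not overlap the control were counted beside the same share of all probe sets. The batch term was not removed from these values, and its removal changes which members stand apart. With Cu 0.1, 0.25 and 0.6 there were 1, 1 and 2 such members (5.88%, 5.88% and 11.8%), against 17.4%, 11.9% and 17.8% of all probe sets. Those at Cu 0.6 were scn3b and kcnb2a, the latter kept by the filter only through copper arrays. With CPF alone there were 2, 2 and 1 (11.8%, 11.8% and 5.88%), against 12.4%, 10.9% and 13.2%. In the mixtures there were 3, 1 and 3 (17.6%, 5.88% and 17.6%), against 23.7%, 20.6% and 13.2%.

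The spread between arrays set these limits. scn3b was the only member whose group means varied more (SD 0.21) than its arrays within groups (SD 0.18). In 11 of the 17 genes the whole range of group means was under 2 within-group SDs. The same counts were not made over all probe sets, so they are not read as particular to the members. Means of 3 arrays also vary through spread between arrays alone, so such a range does not show that a gene was unchanged. The median within-group SD was 0.24 over the members and 0.20 over all probe sets tested.

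Genes that work beside these channels were also followed. Of 17 metabotropic transmitter receptor genes on the array, which act through G proteins, 4 were kept (adra2a, adra2c, oprk1, oprl1) and none passed with averaged copper, with a median change of 0.02. None of 12 genes kept from other channel families passed either, including the chloride channel or transporter genes clcn2c (-0.23 ± 0.13 SE) and clcn3 (0.10 ± 0.09) and trpm7 (-0.01 ± 0.10), with a median of 0.02. That list was drawn by symbol and also took in trpc4apa and trpc4apb, which encode proteins associated with a channel. Of 11 genes for transmitter synthesis and transport, th alone passed, with values close to the filter, and the median was 0.01. ache, the gene of the enzyme that chlorpyrifos inhibits, changed by 0.14 ± 0.15 (SE, limma adjusted p = 0.658).

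Of 12 genes kept for transmitter release and receptor scaffolds, 1 fell with averaged copper. This was sv2bb, a synaptic vesicle glycoprotein gene, by 0.30 ± 0.07 (SE, limma adjusted p = 0.00813). It also fell along the copper rank trend by 0.16 ± 0.04 for each step (limma adjusted p = 0.0448). snap25a, a component of the vesicle fusion machinery, changed by -0.04 ± 0.07 with averaged copper (SE, limma adjusted p = 0.790), and the median of the list was -0.01.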

How the data were processed

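The values analysed are the deposited log2 expression values of 30 arrays, made by the authors with GCRMA per the submitters' processing notes. For its version, nothing was stated in the labels or notes. The log2 scale was inferred from the range of the deposited values, 1.09 to 15.73. From 15617 probe sets 115 controls were removed. Gene symbols came from the platform annotation (10795 probe sets with 1 symbol, 135 with several, 4572 with none), and all 38 member symbols matched RefSeq by gene ID.

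Probe sets above 4 in at least 3 arrays (10531) were fitted together with limma 3.58.1 in R 4.3.3, with the 10 groups and the title batch as terms and 18 residual degrees of freedom. P-values were adjusted by Benjamini-Hochberg over all probe sets tested, with a threshold of 0.05. The 17 members kept are all named, with every member past the threshold and the extremes of each comparison. The members, lists and tests were chosen with earlier results of these data known. From the list of other channels 5 genes caught by the symbol pattern but of another family were removed after the symbols were seen. The fit was tested on simulated data. Alternatives covered batch, filter, scaling, prior, the probe set rule and each array left out. With no array-level signals used here, the precision is limited by the 3 arrays of a group.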

Additional observations from a re-analysis of the deposited data

How the results depend on the processing

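With averaged copper, scn3b was the 1 member called, and in each of the 24 fits with 1 array left out it stayed called, the count being 1 to 1 and its change -0.43 to -0.32. It also stayed called without the batch term, with the batch as a random block, without title batch 3, under the other filters and scalings, with another prior, in the compared groups only and with all probe sets of a gene averaged. The count was 0 within title batch 1 (scn3b -0.37, limma adjusted p = 0.389) and 0 within title batch 2 (-0.34, limma adjusted p = 0.251), which have fewer arrays. Across the whole table those fits called 0 and 38 probe sets. Without the 4 arrays richest in liver or pancreas markers, a setting chosen after seeing the data, it was 0.

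The copper rank trend count was 0 without title batch 3 (scn3b limma adjusted p = 0.104), 0 in the compared groups only (0.0720) and 0 without those 4 arrays (0.0510). It ranged from 0 to 1 with 1 array left out. Quantile normalization moved the counts from 0 to 1, always scn3b, at Cu 0.25 (-0.60, limma adjusted p = 0.0495) and at Cu 0.6 (-0.61, limma adjusted p = 0.0248). The count for any group difference ranged from 0 to 1 with 1 array left out, scn3b passing without CPF 0.25 + Cu 0.25 replicate 3. Where fewer arrays do not show it, the cause was not tested.

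All other counts stayed at 0. Of 3544 other fits of 187 member changes, 14 changed a call, all of scn3b, and none reversed a called change. In 284 the sign changed where the value passed in neither fit. No paired analysis was possible because the labels give no replicate numbers shared between groups. Signal over background was not used here, so low values such as those of kcnb2a and grik1a cannot be set against a detection limit.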
